A study of Mus musculus with 10 samples.

Results

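RAD23B regions listed in replicate 1 only are the regions called in the first RAD23B chromatin immunoprecipitation (ChIP) library of wild-type mouse embryonic stem cells that share no base with any region called in the second. They number 20946 of the 59768 replicate 1 regions (35.0%), and the 3 deposited RAD23B lists hold 102960 regions in all. The other 38822 replicate 1 regions overlapped a replicate 2 region by at least 1 bp and are called shared below. The regions were chosen by their presence in the 2 lists of called regions, so their reads, width and fold are given as a description and no test was made on them. The split is between 2 lists of unequal depth: the replicate 1 list came from 109 M reads and the replicate 2 list, of 42364 regions, from 62.5 M. The part of depth in the split was not tested.

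The study set RAD23B ChIP-seq beside ChIP-seq with normal guinea pig IgG, in D3 wild-type cells (RAD23B and IgG, 2 libraries each) and in Xpc-/- cells (1 library each). All antibodies against RAD23B were raised in guinea pigs. RNA-seq was made from another line, JM8.N4, with 1 library each of wild-type, Rad23b-/-, Rad23b-/- Xpc KD1 and Rad23b-/- Xpc KD2 cells, where KD1 and KD2 are 2 independent hairpins against Xpc. Each ChIP library pooled the material of 4 immunoprecipitations, and the labels do not say whether the replicates came from separate cultures. Expression beside a region is therefore that of a different wild-type line, and the region lists give 1 value per library. The RNA labels were checked on their targets: Rad23b stood at 229 RPKM (reads per kilobase of transcript, scaled to library size) in wild-type cells and at 43.9, 35.8 and 52.5 in the 3 mutant libraries, and Xpc at 8.73, 8.34, 0.915 and 0.895. All 27 genes of a core and naive pluripotency list were at 1 RPKM or more in wild-type cells, with Pou5f1 at 1603 and Sox2 at 184 RPKM, as were 4 of 14 fibroblast markers and 4 of 20 adult neuronal genes.

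RAD23B is a partner of XPC, the protein that recognises distorted DNA at the start of global genome nucleotide excision repair; with CETN2 they form the XPC complex. In embryonic stem cells the same complex is also known as a coactivator that works with OCT4 and SOX2 at genes of the pluripotency network. The protein is also known for shuttling ubiquitinated proteins to the proteasome.

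Among the regions with the highest fold over IgG at the start of an active gene were 3 on the X chromosome that reached into the 250 bases before the listed start and whose promoter is in the sequence table: those at Foxr2 (a forkhead factor), Trmt2b (a methyltransferase for mitochondrial tRNA) and Mageb16 (a MAGE family member). Of the 250 bases before the listed mm9 start, the regions covered 207 at Foxr2, 101 at Trmt2b and all 250 at Mageb16. Their promoter sequences are shown for that reason, and a region need not cover the whole printed stretch. Each line gives the 250 bases before the RefSeq start in build GRCm38.p6, 5′ to 3′ on the gene's strand, with matches to the searched motifs in capitals.
Foxr2: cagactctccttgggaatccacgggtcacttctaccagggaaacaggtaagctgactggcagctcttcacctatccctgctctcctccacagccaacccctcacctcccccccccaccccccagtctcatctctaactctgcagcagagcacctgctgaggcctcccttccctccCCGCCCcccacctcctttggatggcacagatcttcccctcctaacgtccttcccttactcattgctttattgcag
Trmt2b: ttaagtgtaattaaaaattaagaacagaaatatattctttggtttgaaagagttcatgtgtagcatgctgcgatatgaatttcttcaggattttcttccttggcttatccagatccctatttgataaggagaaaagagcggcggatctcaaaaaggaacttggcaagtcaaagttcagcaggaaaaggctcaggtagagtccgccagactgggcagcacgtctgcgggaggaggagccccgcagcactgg
Mageb16: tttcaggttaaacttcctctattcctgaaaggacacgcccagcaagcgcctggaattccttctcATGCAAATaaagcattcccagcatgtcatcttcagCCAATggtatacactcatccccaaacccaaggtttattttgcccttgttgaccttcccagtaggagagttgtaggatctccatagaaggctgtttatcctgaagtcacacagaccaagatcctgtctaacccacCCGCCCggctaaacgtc
In that order they are chrX:153118538-153118787 (plus strand), chrX:134276985-134277234 (minus strand) and chrX:79671436-79671685 (minus strand). The regions themselves are in mm9 coordinates and were not converted, so the RefSeq start may differ from the listed start. The search, on both strands, covered the octamer ATTTGCAT, the SOX core ACAATG, the GC box GGGCGG, the CCAAT box CCAAT, the TATA box TATAAA, the E-box CACGTG, the palindromic NRF1 core and the ETS core CCGGAAG. None of these overlapped another in the windows shown. The Mageb16 promoter held an octamer on the opposite strand, a CCAAT box and a GC box on the opposite strand. The Foxr2 promoter held 1 GC box on the opposite strand, and the Trmt2b window held none of the 8. Over the 32851 promoters in the table, the octamer occurred in 1.60%, the SOX core in 10.7%, the CCAAT box in 33.8%, the GC box in 32.7%, the TATA box in 12.4%, the E-box in 6.02%, the ETS core in 6.91% and the NRF1 core in 0.782% of windows of the same length. The regions at Dppa4 and Slc6a8 also covered part or all of the 250 bases before the start.

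The regions were narrow and low. Their median width was 374 bp (quartiles 305 and 448, range 250 to 1825), against 598 bp (488 and 823) for shared regions. The maximum, the highest number of extended RAD23B reads over any position of a region, had a median of 68 (64 and 75) against 107 (86 and 142) in shared regions, where 61 was the lowest maximum in the list. A maximum below 70 was seen in 56.2% of the regions and in 4.77% of shared ones. Widths below 400 bp made up 59.2% and 7.27% of the same classes. Only 57 of the 20946 had a maximum above 150 (0.272%, exact 95% interval 0.206 to 0.352%), against 8283 shared regions (21.3%).

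The reads inside the regions followed the same order. RAD23B reads had a median of 86 (73 and 107) against 182 (125 and 280), and IgG reads a median of 45 (35 and 60) against 84 (57 and 132). Per 100 bp of region, RAD23B reads were 24.4 against 28.5 and IgG reads 13.0 against 14.1 (medians). The ratio of RAD23B to IgG reads had a median of 1.86 (1.60 and 2.28) against 2.06 (1.72 and 2.65). The 2 classes overlapped widely in this ratio, in contrast to width and maximum. Together the regions covered 8.26 Mb and held 2026345 RAD23B and 1085893 IgG reads, a summed ratio of 1.87, while shared regions covered 27.4 Mb with a summed ratio of 2.10.

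**Figure D1:**
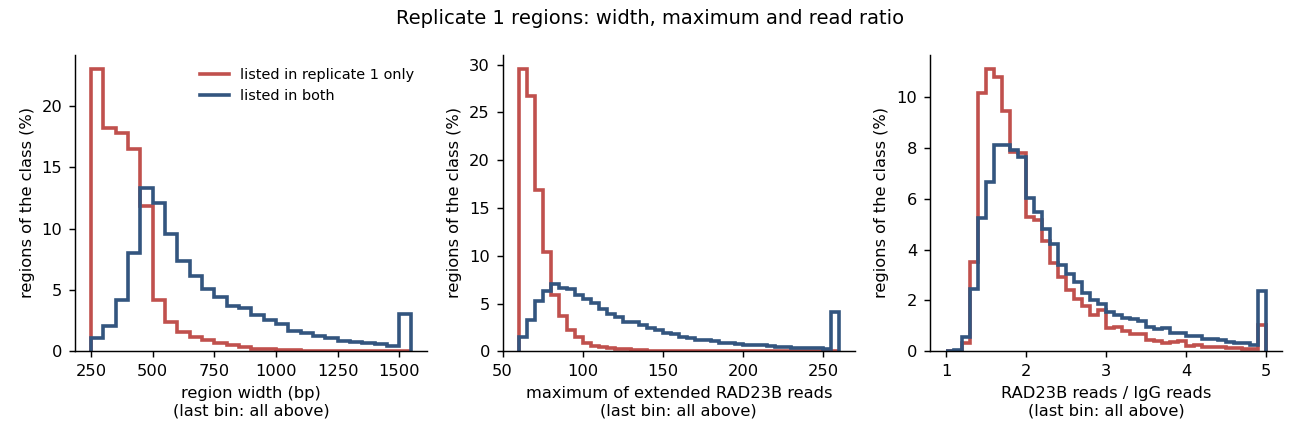
Distribution of region width (bp), of the maximum of extended RAD23B reads and of the RAD23B to IgG read ratio, as the percentage of the 20946 regions listed in replicate 1 only (red) and of the 38822 shared regions (blue). Width and maximum of the red class pile up at the lower end (medians 374 bp and 68 reads), and the ratios of the 2 classes lie over each other (medians 1.86 and 2.06).

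The authors' scaled fold of RAD23B over IgG reached 2 in 6806 of the regions (32.5%), against 46.7% of shared regions and 41.7% of all replicate 1 regions. It reached 5 in 110 (0.525%) and in 565 shared regions (1.46%). The authors' p-value for the region was 0.001 or less in 53.3% and 86.3%. That p-value depends on the number of reads as well as on the ratio, and among regions at 0.001 or less the median ratio of the regions listed once was above that of shared ones (2.24 against 2.17). In all, 9166 of the regions (43.8%) had a maximum in RPM (reads scaled to library size) at or above 0.640, the lowest in the replicate 2 list, as had 95.2% of shared regions. The lowest RPM in the replicate 1 list was 0.558, so the remaining 56.2% lay under any RPM listed in replicate 2.

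Sorted by the maximum, the share listed in replicate 1 only went from 92.2% in the lowest decile of replicate 1 regions, through 28.6% in the fifth, to 0.452% in the highest. By width it went from 91.6% to 1.67%, and by IgG reads from 72.0% to 2.63%. By the authors' fold the range was from 47.9% to 18.4%, and 1098 regions in the highest decile of fold were listed in replicate 1 only. The share thus varied more over deciles of the maximum than over deciles of the fold. Each list has a lowest maximum, 61 reads in replicate 1 and 40 in replicate 2. Height is therefore not independent of the rule that made the classes, and the 2 gradients are a description.

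**Figure D2:**
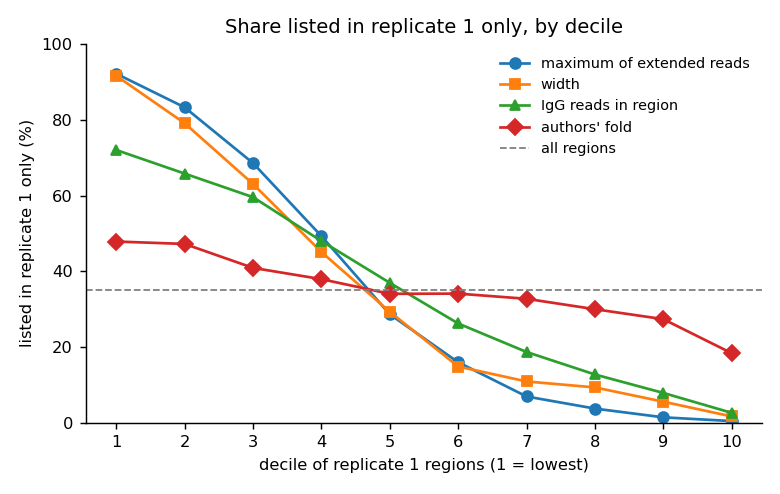
Percentage of replicate 1 regions listed in replicate 1 only (vertical axis) in each decile of the list (horizontal axis, 1 lowest) sorted by maximum, width, IgG reads or the authors' fold. The dashed line is the share over all regions, 35.0%. The maximum runs from 92.2 to 0.452%, the fold only from 47.9 to 18.4%.

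Many of the regions lay close to a region of the other list. The distance to the nearest replicate 2 region had a median of 5875 bp (quartiles 1139 and 24550.5, range 5 to 2810597). It was at most 100 bp for 601 regions (2.87%), at most 500 bp for 3210 (15.3%), at most 1 kb for 4915 (23.5%) and at most 10 kb for 12567 (60.0%). Shared regions were about as crowded: the nearest other shared region lay at a median of 4976 bp from a shared region and of 6116 bp from a region listed once. The regions nearest to the limit were chr18:65857923-65858375, which lay 5 bp from a replicate 2 region with 111 RAD23B and 38 IgG reads, chr1:173182122-173182610 at 7 bp with 124 and 71 reads, and chr15:25658742-25658992 at 7 bp with 66 and 39 reads. Just across it were shared regions that overlapped by 2 bp (chr8:90328636-90328922, 68 and 46 reads), 7 bp (chr10:7401235-7401676, 108 and 64 reads) and 12 bp (chr8:120808349-120808600, 68 and 26 reads).

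The Esrrb locus on chromosome 12 shows this interleaving. Esrrb encodes an orphan nuclear receptor of the naive pluripotency network, and its wild-type level was 162 RPKM. The locus was picked after the counts were seen, as the one with the most regions listed in replicate 1 only: 15, with 17 shared regions, over 160.5 kb. The 15 had maxima of 61 to 91 reads (median 66), RAD23B reads of 66 to 173 (median 86) and authors' folds of 1.42 to 2.75 (median 1.69). The 17 shared regions had maxima of 67 to 470 (median 109) and folds of 1.30 to 5.60 (median 1.86). The highest of the shared ones, chr12:87842359-87843414, held 991 RAD23B and 168 IgG reads. One of the 15, chr12:87839208-87839467 with 69 and 44 reads, ended 11 bp from a replicate 2 region and directly before the next shared region, which held 779 and 140 reads. The highest fold among the 15 was at chr12:87833647-87834081, with 100 and 34 reads. Next in number were Zfp423 with 13 and 27 shared, Nav2 with 12 and 17, Tns3 with 11 and 14 and Sipa1l3 with 11 and 24. In all, 3957 of 23501 genes held at least 1 in the listed locus, and 1258 of those held no shared region.

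Placement was measured against genes whose coordinates are listed once in the expression table, 23501 of 36586 genes. Within 1 kb of the start of such a gene lay 2140 of the regions (10.2%, exact 95% interval 9.81 to 10.6%), against 7727 shared regions (19.9%) and 16.5% of all replicate 1 regions. They covered a start in 4.67% and 15.1% of cases. Inside a listed locus lay 28.9% (6057 regions) against 35.6%, with 33.3% over the whole list. More than 50 kb from any start lay 34.1% and 29.0%. With all listed genes, including those that share coordinates, 14.6% of the regions lay within 1 kb of a start and 55.9% inside a locus, so the absolute share inside genes rests on the gene set used.

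At equal width the difference in placement at starts was small. Among regions of 351 to 450 bp, 8.30% of those listed once and 7.92% of shared ones lay within 1 kb of a start; among those of 601 to 900 bp the shares were 26.1% and 25.1%. At widths of 250 to 350 bp they were 7.67% (interval 7.12 to 8.25%) and 9.07% (7.52 to 10.8%). At equal maximum the order depended on the band. In the band of 86 to 110 reads, 17.3% of 1648 and 17.9% of 11287 regions were within 1 kb of a start. From 111 to 150 reads the shares were 30.0% (24.9 to 35.5%) of 303 and 26.3% (25.4 to 27.2%) of 9672, and above 150 reads 29.8% (18.4 to 43.4%) of 57 and 23.3% (22.4 to 24.2%) of 8283. In the lowest band, 61 to 70 reads, the shares were 8.62% (8.13 to 9.12%) of 12617 and 10.9% (9.64 to 12.3%) of 2199, and in the band of 71 to 85 reads 10.4% and 13.4%. At equal fold the classes stayed apart in the lower bands. At an authors' fold of 1.5 to 2, 10.7% and 27.5% lay within 1 kb of a start, with median widths of 366 and 599 bp. At a fold of 2 to 3 the shares were 7.12% and 16.2%. They were closer at a fold of 3 to 5, with 3.21% (2.31 to 4.35%) and 4.88% (4.30 to 5.51%). Above a fold of 5 they were 0.909% of 110 and 2.65% of 565 regions. Wide regions lay at starts more often in both classes, and 6.01% of the regions listed once were 600 bp or wider, against 49.8% of shared ones.

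The control library was where the tall regions stood apart. A column of the replicate 1 list gives the part of each region covered by regions of the IgG library, as read from its heading and values. By it, 4667 of the regions (22.3%) overlapped an IgG region, against 21076 shared regions (54.3%) and 43.1% of the whole list. At maxima of 61 to 70 reads the 2 classes were close, at 11.2% and 13.6%. From 86 to 110 reads the order turned, with 61.2% (58.8 to 63.5%) of the regions listed once and 50.7% (49.7 to 51.6%) of shared ones. From 111 to 150 reads it was 93.7% and 67.1%, and above 150 reads it was 57 of 57 against 75.1%. The median read ratio ran the opposite way: 1.89 and 1.87 in the lowest band, 1.69 and 1.96 at 86 to 110 reads, 1.49 and 2.09 at 111 to 150, and 1.44 and 2.58 above 150. Low regions listed once thus had about the same ratio over IgG as low shared ones. In the higher bands their RAD23B reads were fewer than those of shared regions (medians of 136 and 150 at 86 to 110 reads, 187 and 219 at 111 to 150, 239 and 360 above), and their IgG reads were 79 and 78, 125 and 105, and 165 and 141.

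**Figure D3:**
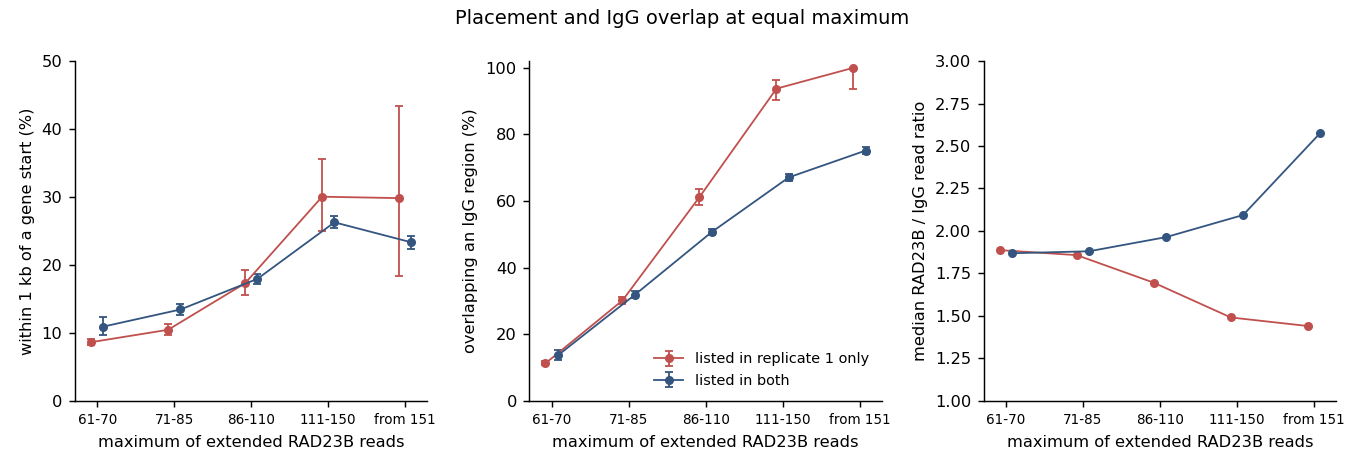
Percentage of regions within 1 kb of a gene start (left), percentage overlapping an IgG region (middle) and median RAD23B to IgG read ratio (right) in bands of the maximum of extended RAD23B reads, for regions listed in replicate 1 only (red) and shared regions (blue). Bars are exact 95% binomial intervals and cover counting error only. Start shares of the 2 classes lie within a few points of each other, with wide intervals for the red class at the right, while IgG overlap of the red class reaches 100% and its ratio is 1.44 above 150 reads.

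Split by that overlap, the 20946 regions formed unlike groups. The 4667 that overlapped an IgG region had a median width of 471 bp, 117 RAD23B and 76 IgG reads and a ratio of 1.51 (quartiles 1.43 and 1.63), and 18.6% of them lay within 1 kb of a start. The other 16279 had a median width of 351 bp, 81 and 41 reads and a ratio of 2 (1.73 and 2.44), and 7.80% lay within 1 kb of a start. The same split of the shared regions gave 28.9% and 9.20% within 1 kb of a start. Where no IgG region was overlapped, start placement was thus 7.80% (7.39 to 8.22%) for regions listed once and 9.20% (8.78 to 9.64%) for shared ones, and placement inside loci 26.7% and 27.2%. An authors' fold of 2 was reached by 1.65% of the regions that overlapped an IgG region and by 41.3% of the rest. Among shared regions the same order was seen, at 27.1% and 69.9%, with median ratios of 1.82 and 2.48. Overlap with an IgG region goes with more IgG reads. The order of ratio and fold is therefore not independent of the split. The part of the IgG signal in these differences was not tested.

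The 5 regions with the most RAD23B reads all belonged to the group with high IgG. The region chr3:100289082-100289583, in the Fam46c locus, held 644 RAD23B and 512 IgG reads, an authors' fold of 1.20. At chr8:86671108-86672792, which covers the start of Cc2d1a, there were 619 and 532 reads (fold 1.11). The widest region, chr15:76496520-76498345 with 1825 bp, lay 2033 bp from the start of Foxh1, the forkhead partner of SMAD proteins in Nodal signalling, and held 517 and 371 reads (fold 1.33). Next were chr17:35107780-35109550 with 517 and 395 reads and chr1:145709352-145709870 with 489 and 293. IgG regions covered a fraction of between 0.777 and 0.985 of each of these 5.

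At the other end, the 10 regions with the highest fold had almost no control reads. They held 62 to 96 RAD23B reads and 3 to 10 IgG reads, with folds of 7.37 to 15.2 and widths of 250 to 417 bp. The highest was chrX:20369558-20369809 with 62 and 3 reads, a read ratio of 20.7 whose 95% counting interval ran from 6.75 to 103. The next were chr5:99717309-99717599 with 70 and 5 reads (fold 11.4) and chrX:58646338-58646737 with 90 and 7 (fold 10.9), then chr1:129991293-129991543 with 63 and 5 and chrX:17098521-17098863 with 83 and 7. None of the 10 overlapped an IgG region or lay in the locus of a gene with coordinates listed once. The nearest start of such a gene was 3941 to 227665 bp away, and genes that share coordinates were not looked at here. With so few control reads, the order among them is within counting error.

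Of the regions with the highest fold within 1 kb of the start of a gene at 1 RPKM or more, 4 of 10 were on the X chromosome. That chromosome held 1.88% of all regions listed once. These 10 were picked by fold, and regions listed once had a median read ratio of 2.22 on X and 1.85 on autosomes. The count on X is therefore not independent of the rule that picked them. The region near the start of Tnrc18, chr5:143580302-143580563, had the highest fold, with 74 RAD23B and 10 IgG reads (fold 6.53), and lay 341 bp from a replicate 2 region. At Lrp2, the endocytic receptor megalin, chr2:69424879-69425222 held 88 and 17 reads (fold 4.73). The Foxr2 region, chrX:149552866-149553285, held the same 88 and 17 reads and lay 43 bp from the listed start. At Trmt2b, chrX:130811374-130811624 covered the start with 61 and 12 reads (fold 4.56). These regions at Trmt2b, Slc6a8, Mageb16 and Dppa4 covered the start with no replicate 2 region within 10 kb, whereas those at Tnrc18, Lrp2, Foxr2, Atxn7l3, Exd2 and Kif5a lay 180 to 344 bp from one. At Slc6a8, the creatine transporter, chrX:70918273-70918523 held 64 and 15 reads (fold 3.88). At Mageb16, chrX:76916659-76917177 held 129 and 31 reads (fold 3.88), 925263 bp from the nearest replicate 2 region. Dppa4, a chromatin protein of pluripotent cells at 63.2 RPKM, had chr16:48283444-48283934 over its start with 122 and 33 reads (fold 3.45).

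Expression of the nearest gene differed at starts. For regions within 1 kb of a start the median wild-type level of that gene was 3.02 RPKM (exact 95% interval 2.63 to 3.51), against 9.52 (8.94 to 10.1) for shared regions. From 1 to 5 kb the medians were 2.81 and 3.29, from 5 to 50 kb 1.88 and 2.43, and beyond 50 kb 0.495 and 0.866. Within bands of width the medians at starts lay closer together up to 900 bp: 2.01 and 1.94 RPKM at 250 to 350 bp, 1.52 and 2.08 at 351 to 450 bp, 3.85 and 4.06 at 451 to 600 bp, and 9.92 and 11.0 at 601 to 900 bp. In wider regions they were 7.36 RPKM, over 54 regions listed once, and 14.1. Within bands of the maximum the genes near regions listed once were not lower up to 150 reads: the medians were 1.86 and 1.83 RPKM at 61 to 70 reads, 3.15 and 2.51 at 71 to 85, 8.00 and 5.94 at 86 to 110, and 17.8 and 11.9 at 111 to 150. Above 150 reads they were 8.72, over 17 regions listed once, and 18.6.

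Sorted by gene, 1256 of the 23501 genes (5.34%) had a region listed in replicate 1 only within 1 kb of the start and no shared one. Another 868 had both kinds, 6518 had shared regions only and 14859 had none. The 1256 had a median wild-type level of 1.69 RPKM (1.32 to 2.11), against 6.60 for both kinds, 9.63 (8.99 to 10.3) for shared only and 0 for none. At 1 RPKM or more were 56.0% of them, 74.5%, 76.4% and 14.2% of the others in that order, and 35.9% of all genes. Among protein-coding genes alone the medians were 2.42 RPKM over 1084 genes and 12.0 over 5872. Without regions that overlap an IgG region, the genes with a region listed once within 1 kb of the start had a median of 2.05 RPKM and those with a shared one 2.81, compared with 3.21 and 9.17 when all regions were used. When a replicate 2 region within 500 bp also counted as shared, the first median fell to 1.88.

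**Figure D4:**
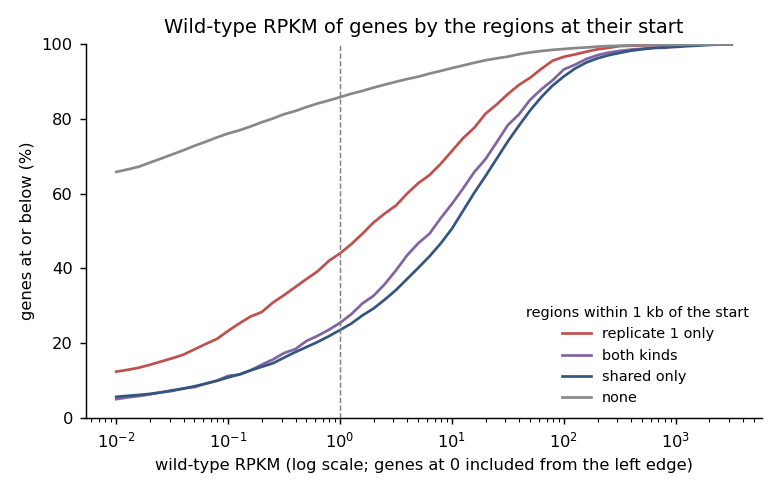
Cumulative percentage of genes (vertical axis) at or below a wild-type RPKM (horizontal axis, log scale) for genes with regions listed in replicate 1 only (1256), both kinds (868), shared regions only (6518) or none (14859) within 1 kb of the start. The dashed line marks 1 RPKM. The red curve lies between genes with shared regions and genes with none, with medians of 1.69, 9.63 and 0 RPKM.

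The 10 most highly expressed of the 1256 genes included 4 ribosomal protein genes, and 4 of the 10 were on the X chromosome. Of all 703 genes of the class at 1 RPKM or more, 54 were X-linked. Rplp0, a protein of the ribosomal stalk, led at 2605 RPKM, and its region chr5:116009089-116009830 held 241 RAD23B and 148 IgG reads, a fraction of 0.935 of it covered by IgG regions. Rpl10 (1844 RPKM) had chrX:71515862-71516349 over its start with 123 and 43 reads (fold 2.69) and no IgG region. Rpl14 (1609 RPKM) had 231 and 152 reads at chr9:120480268-120481046. Many ribosomal protein genes have processed copies, so their RPKM depends on how such reads were assigned, which is not given in the sources used here. Set, a histone chaperone and phosphatase inhibitor, stood at 1447 RPKM with 79 and 46 reads. Rpl36a (625 RPKM), the proteasome subunit gene Psmb4 (457 RPKM), Mir293 of the embryonic miR-290 cluster (394 RPKM), the splicing factor Nhp2l1 (303 RPKM), the actin-binding thymosin Tmsb4x (285 RPKM) and the paraspeckle protein Nono (278 RPKM) followed. In the Nono region, chrX:98624576-98624944, the reads were 83 and 26 (fold 2.97), the highest fold of these 10.

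Of 290 listed genes in 12 lists, 184 had coordinates of their own, of which 19 had only regions listed once within 1 kb of the start and 138 had a shared one there. The share in the first of these classes was 5.34% over all 23501 genes and 7.14% over protein-coding genes. It was 1.42% among genes listed at 0, 7.61% among other genes below 1 RPKM, 9.71% from 1 to 10 and 7.76% from 10 to 50 RPKM. Core and naive pluripotency genes had 2 of 20 (10.0%) in the first class, Dppa4 and Nr0b1, an orphan nuclear receptor, while 15 had a shared region. Of 17 genes of the XPC complex and excision repair, 3 (17.6%) were in the first class and 13 had a shared region. They were Ercc8 (the CSA protein of transcription-coupled repair), Gtf2h2 and Gtf2h4 (both TFIIH subunits). At Gtf2h2 (60.2 RPKM) chr13:101262054-101262832 held 224 and 148 reads (fold 1.44), at Ercc8 (11.5 RPKM) 196 and 147 (fold 1.27) and at Gtf2h4 (33.0 RPKM) 101 and 49 (fold 1.95). IgG regions covered a fraction of 0.913 of the Gtf2h2 region and 0.958 of the Ercc8 region.

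Of 21 regulators of the germ layers, 4 had no region within 1 kb of the start, against 63.2% of all genes and 49.1% of protein-coding genes. Their count in the first class was the largest of the 12 lists, 6 of 21 (28.6%), with 11 holding a shared region. That class held 5.34% of all genes and 7.14% of protein-coding genes. The 6 were Sox17 and Foxa2 of endoderm, T of mesoderm, Nkx2-5 of heart, Cdx2 of trophectoderm and Otx2 of epiblast and anterior brain. Their wild-type levels were 0.281, 0.140, 0.586, 0.803, 0.0991 and 11.0 RPKM in that order, so that Otx2 alone was above 1. The Otx2 region, chr14:49285988-49286856, held 203 RAD23B and 89 IgG reads (fold 2.16), and the Cdx2 region, chr5:148118182-148119240, held 274 and 149 (fold 1.75). At Sox17 there were 71 and 45 reads, at T 74 and 51, at Nkx2-5 103 and 71 and at Foxa2 84 and 42. IgG regions covered a fraction of 0.779 of the Nkx2-5 region and 0.425 of the Cdx2 region, and no part of the rest. These 6 regions lay 1094 to 73993 bp from a replicate 2 region. The remaining lists had 1 of 12 Polycomb genes (Phc2), 1 of 19 proteasome genes (Psmb4), 2 of 15 ribosomal protein genes (Rpl10, Rpl14), 1 of 17 genes of mitochondrial respiration (Ndufa9), 2 of 15 splicing genes (Snrpb, Snrpd2) and 1 of 12 fibroblast markers (Col1a2, 0.206 RPKM). Of 18 cell cycle genes, 8 DNA methylation genes and 10 adult neuronal genes, 0 were in this class. These counts are small and stand as a description.

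In Rad23b-/- cells the genes with only regions listed once at the start had a median of -0.08 for the mutant to wild-type log2 ratio (of RPKM + 1), with an interval of -0.12 to -0.04, over the 767 genes at 1 RPKM or more in either library. The median was -0.10 for genes with both kinds, -0.18 (-0.20 to -0.17) for shared only, -0.16 for none and -0.16 for all 9052 genes. At least 2-fold higher, on that scale, were 32 of the 767 (4.17%) and at least 2-fold lower 25 (3.26%), against 4.30% and 4.22% of all genes. The shares in this class were thus near those of all genes, which differed between classes. They were 4.60% and 3.74% for genes with both kinds, 2.40% and 3.42% for shared only, and 8.38% and 6.41% for none. In Xpc KD1 the class median was -0.07 and that of all genes -0.14, and in Xpc KD2 -0.08 and -0.14. The 3 contrasts share the wild-type library, and with 1 library per group no difference has a replicate check.

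The 5 largest increases in this class, which have no replicate check, were of short RNA genes, epithelial genes and Adm. Copies of SNORA17, a small nucleolar RNA, were listed at 0 in wild-type cells and at 7.60 and 3.36 RPKM in Rad23b-/- cells but at 0 in Xpc KD1 and Xpc KD2, which are Rad23b-/- too. As near-identical copies of a short RNA their values are uncertain. Tgm1, a transglutaminase of the skin barrier, had 5.62 RPKM in wild-type and 26.7 in Rad23b-/- cells, with 19.0 in Xpc KD1 and 14.7 in Xpc KD2. Lamb3, a laminin chain, had 0.574 and 5.41 RPKM, and Adm, the peptide hormone adrenomedullin, 13.1 and 55.9 RPKM in wild-type and Rad23b-/- cells. The Adm start had 2 regions listed once, the nearer with 187 RAD23B and 98 IgG reads. The 5 largest decreases were of U6, CT573034.1, Rragb, Rpl39l and Tuba3a. U6, a short RNA gene of many copies, had 25.7 RPKM in wild-type cells, was listed at 0 in Rad23b-/- and Xpc KD2 cells and had 40.8 RPKM in Xpc KD1, the opposite direction. CT573034.1, annotated as a miRNA, had 10.7 RPKM in wild-type cells and was listed at 0 in the 3 mutant libraries. Rragb, a Rag GTPase of amino acid sensing on the X chromosome, had 22.0 RPKM in wild-type cells and 4.75, 4.58 and 5.05 in the 3 mutant libraries. Rpl39l had 23.6 and then 5.19, 6.51 and 6.23 RPKM, and its region chr16:10170165-10170487 held 81 and 27 reads (fold 2.80).

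On the X chromosome most listed regions were listed once. Of 748 replicate 1 regions there, 394 (52.7%, interval 49.0 to 56.3%) overlapped no replicate 2 region, against 20550 of 59017 on the autosomes (34.8%), and the remaining 2 lay on chromosome Y. The X chromosome held 1.88% of the regions listed once, 0.912% of shared regions and 1.25% of the whole list. Among autosomes the share listed once lay between 29.8% on chromosome 15 and 38.0% on chromosome 5, with 30.6% on chromosome 8. With both classes together, regions on X were low: their median maximum was 75 reads against 88 on the autosomes. Their IgG reads were 9.34 per 100 bp against 13.7, and their read ratio 2.72 against 1.98. By class, IgG reads per 100 bp on X were 11.2 in regions listed once and 8.25 in shared ones, against 13.0 and 14.1 on autosomes. The ratios were 2.22 and 3.09 on X, and 1.85 and 2.05 on autosomes. At equal maximum the share listed once was 88.2% on X and 85.1% on autosomes at 61 to 70 reads, 51.6% and 46.0% at 71 to 85, and 21.3% and 12.6% at 86 to 110. Above that, where X held few regions, it was 1 of 66 (1.52%) and 3.05% up to 150 reads, the other way round, and 1 of 41 (2.44%) and 0.675% beyond. Chromosomes 15 and 8, at the low end, had the highest autosomal IgG densities, 15.6 and 16.0 reads per 100 bp.

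**Figure D5:**
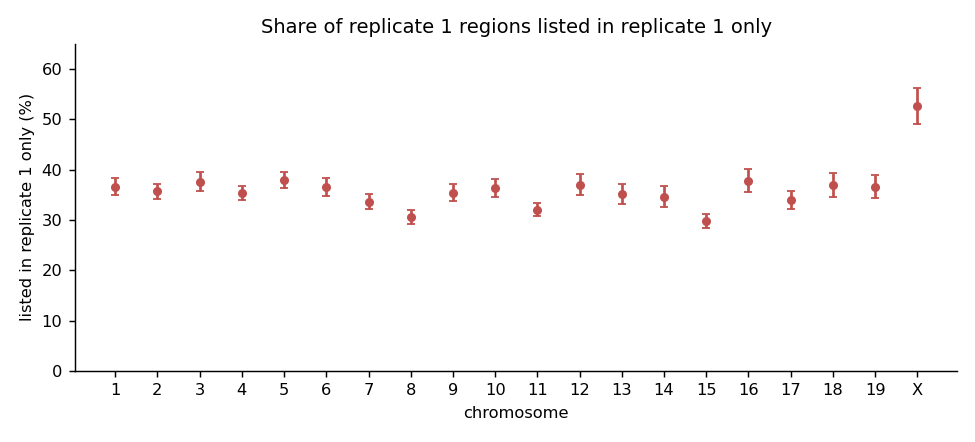
Percentage of replicate 1 regions on each chromosome that were listed in replicate 1 only, with exact 95% binomial intervals that cover counting error only. Chromosome X stands at 52.7%, and the autosomes lie between 29.8% and 38.0%.

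The starts of active X-linked genes followed. Of 433 X-linked genes at 1 RPKM or more, 54 (12.5%, interval 9.51 to 16.0%) had only regions listed once within 1 kb of the start, 45 (10.4%) had only shared ones and 329 (76.0%) had none. Of 7959 such autosomal genes, 649 (8.15%) had only regions listed once, 4938 (62.0%) only shared ones and 1730 (21.7%) none. X-linked genes in the first class had a median of 19.9 RPKM, and autosomal genes 10.2 RPKM.

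The Xpc-/- list overlapped few of the regions, but it is a short list. Of the 102960 regions in the 3 lists, 59768 are of replicate 1 and 42364 of replicate 2. The length of the Xpc-/- list limits the shares given here. Of the 20946, 41 (0.196%, interval 0.141 to 0.265%) overlapped a region of that list, against 478 shared regions (1.23%) and 0.868% of the whole replicate 1 list. Of the 41, 21 lay on chromosome 8 and 27 overlapped an IgG region, and of the 478 these numbers were 243 and 454. Chromosome 8 held 6.61% of all regions listed once, 8.10% of shared regions and 7.58% of the whole replicate 1 list. An IgG region was overlapped by 22.3%, 54.3% and 43.1% of these. The 41 had a median of 112 RAD23B and 79 IgG reads. In the Xpc-/- list the fold as deposited tracks IgG reads divided by RAD23B reads, going by the headings, so which library these regions were called in is not settled, and the overlap is a count between lists only. Conversely, 1732 of the 42364 replicate 2 regions (4.09%) overlapped no replicate 1 region, with a median width of 345 bp and a median authors' fold of 1.61.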

How the data were processed

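RAD23B region lists of wild-type replicates 1 and 2 and of Xpc-/- cells, and expression tables of the JM8.N4 libraries, were used as deposited. The submitters' processing notes name Partek, TopHat2 2.0.6, Cufflinks 2.0.2 and Cuffdiff with mm9. For ChIP-seq, the aligner and calling limits are not given in the sources. The region lists hold, per the file headers, counts of RAD23B and IgG reads, the maximum count of extended reads and its RPM, a p-value and a scaled fold set by the authors. The deposited overlap column holds a fraction from 0 to 1, read as the part of a region covered by IgG regions. Replicate 2 columns carry replicate 1 library names in their headings, and only the coordinates, width, maximum, RPM and fold of that list were used. The maximum and RPM columns of the Xpc-/- list were not used (2 columns). The deposited RPKM columns hold exactly 1 in 13889 wild-type values and no 0, so exactly 1 was read as 0; the authors scaled RPKM separately for each table. Lines without a gene name (72 of 36658, with 0.00144% of the wild-type RPKM sum) were dropped.

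Regions sharing at least 1 bp were matched. Distances run from a region's edge to the listed start of a gene, in mm9, for the 23501 genes whose ID and coordinates are listed once. Log2 ratios used RPKM + 1 among genes at 1 RPKM or more in either library, which understates the change of low genes. With 1 list or library per group, no test was made. Intervals are exact 95% intervals of shares (Clopper-Pearson), of medians (order statistics) and of read ratios (conditional binomial). They cover counting error only, and reads without molecular identifiers are not independent molecules. Depth was 109 M reads in replicate 1 and 62.5 M in replicate 2, from the maximum over its RPM. The depth of the RNA libraries is unknown.

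Named regions were the 10 of highest fold, the 5 with most RAD23B reads, the 5 widest (the first 3 are also among those with most reads) and the 10 of highest fold within 1 kb of the start of a gene at 1 RPKM or more. Named genes were, among those with only regions listed once, the 10 of highest wild-type RPKM, the 5 largest rises and falls in Rad23b-/- cells and members of 12 gene lists. The regions, lists and rules were chosen with earlier results of these data known. Promoters came from RefSeq (GRCm38.p6), for 843 of 1084 protein-coding genes of the class (77.8%); as this is under 80%, promoter sequence was not compared between classes. Promoters were shown only where the region reaches into the 250 bases before the listed start, a choice made after seeing the values. Overlap and distance code was tested on simulated intervals. Software was Python 3.11.15 with pandas 2.3.3, scipy 1.17.1, matplotlib 3.10.9 and numpy 2.4.6.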

Additional observations from a re-analysis of the deposited data

How the results depend on the processing

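No paired analysis was possible because the results come from no test. Leaving out a replicate was not run, since membership needs both lists. The alternatives limited to autosomes and without regions that overlap an IgG region were chosen after seeing the data. Medians and shares of the regions listed once stayed below those of shared regions under every alternative of region lists run, except the read ratio at the authors' p-value of 0.001 or less. On autosomes alone, the medians and shares stayed inside their counting intervals, with 20550 regions listed once.

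With a covered part of 0.5 needed for a match, the share listed once was 37.5%, the median width 383 bp, RAD23B reads 88, the share near a start 11.1%, inside a locus 29.6% and the RPKM of genes there 3.69. With a replicate 2 region within 500 bp counted as shared, the share was 29.7%, the ratio 1.87, near a start 8.25%, inside a locus 28.3% and RPKM 1.88. At an authors' fold of 2 or more there were 6806 regions (27.3%), of 359 bp, 82 reads and ratio 2.57, with 6.30% near a start, 24.3% inside a locus, RPKM 2.50 and 0.0441% on an Xpc-/- region. At an authors' p-value of 0.001 or less there were 11172 regions (25.0%), of 388 bp, 89 reads and ratio 2.24, with 9.25% near a start, 27.2% inside a locus and 0.116% on an Xpc-/- region. At an RPM of at least the lowest of replicate 2 there were 9166 regions (19.9%), of 449 bp, 107 reads and ratio 1.82, with 12.4% near a start, 31.0% inside a locus, RPKM 4.90 and 0.316% on an Xpc-/- region. Without regions that overlap an IgG region the share listed once was 47.8%, with 351 bp, 81 reads, ratio 2, 7.80% near a start, 26.7% inside a locus, RPKM 2.05 and 0.0860% on an Xpc-/- region. With all listed genes, 14.6% lay near a start, 55.9% inside a locus, and RPKM was 2.37. In a window of 5 kb, 21.0% lay near a start. Among genes at 1 RPKM or more the median RPKM was 11.8. Without a filter on low RPKM the median log2 ratio in Rad23b-/- cells was 0. Fewer regions or genes enter most of these settings by construction; beyond that the cause was not tested. The part of sequencing depth in the split between the lists was not tested; 43.8% of the regions listed once had an RPM at or above the lowest listed in replicate 2.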
